A study of Mus musculus with 7 samples.

Results

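The effect of dietary glucosylceramide (GC) on skin transcripts was estimated once over all 7 arrays of the study, as a single ratio of GC-fed over control-fed skin shared by the arrays before and after detergent treatment. All 7 of 7 arrays entered the fit, 3 before and 4 after the detergent, and the members were the 17108 genes whose probe stood well above its background in 3 or more of the 14 dye channels. The mice were male HR-1, a hairless strain, aged 5 weeks, and were fed AIN-93G, a purified rodent diet, with GC in the GC-fed group and without it in the control-fed group. Before detergent, dorsal skin was taken at 12 days of diet with 0 treatments. After detergent it was taken at 14 days of diet, 2 days after the start of sodium dodecyl sulfate (SDS), which was applied at 10% in 2 daily treatments to the right side of the back. Each array held 1 GC-fed and 1 control-fed sample, labelled with different dyes from 500 ng of total RNA each. The labels call the arrays biological replicates and do not say whether RNA was pooled, so p-values measure the spread between these arrays. They name no sorted cells, and whole dorsal skin can include muscle, fat and blood cells beside epidermis.

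GC consists of ceramide carrying a sugar head group. In the epidermis, keratinocytes make GC with the synthase Ugcg, store it in lamellar bodies and release it at the surface, where it is cut back to ceramide, which with cholesterol and fatty acids forms the water barrier. GC eaten with the diet is largely broken down in the gut to its sugar, sphingoid base and fatty acid before uptake. SDS is a detergent that extracts barrier lipids and irritates the skin.

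The GC-fed sample carried Cy3 on array 1 before SDS and on arrays 1 and 2 after SDS, and Cy5 on the other 4 arrays, so a dye term was fitted for each gene. The pooled ratio is therefore the mean of the Cy3 and the Cy5 arrays, with equal weight for each orientation. Ratios are given as log2 of GC-fed over control-fed, so that 1 is a doubling. The share of spots well above background was 58.2 to 62.8% in the red and 48.5 to 54.5% in the green channel, and 0 spots were saturated. The number of arrays limits the precision: the median standard error (SE) of the pooled ratio was 0.063, and the median size of the ratio was 0.049. Across genes, which are not replicates, the ratios of after-SDS array 4 had r = -0.50, -0.62 and -0.30 with after-SDS arrays 1, 2 and 3, and those of before-SDS array 1 had r = -0.40 and -0.18 with before-SDS arrays 2 and 3 (17061 genes each). The direction of each array rests on its dye labels; a swapped label on array 4 would turn every ratio on it, and this was not tested. Keratinocyte genes, the labelled tissue's own, were well above background in all 14 channels for 36 of 36 genes of the cornified envelope and 22 of 22 basal keratinocyte genes. Skeletal muscle and adipocyte markers were so for 29 of 33 and 26 of 26 genes.

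No gene passed in the pooled fit (0% of 17108, limma, adjusted p under 0.05 needed). The lowest adjusted p was 0.736, for Serpina3j, and the next was 0.939. At an unadjusted p under 0.05 there were 204 genes with a higher ratio (1.19%) and 359 with a lower ratio (2.1%). If no gene differed, about 1 in 20 would be expected under that limit, and these 563 of 17108 genes are fewer. All 7 arrays gave the same sign for 146 genes (0.853%), 53 of them higher in GC-fed skin (0.31%) and 93 lower (0.544%). The same sign on all 7 arrays describes these arrays, and no test was attached to it. The count was not compared with the number that random signs would give. Without before-SDS array 1 the remaining 6 arrays gave 220 higher and 190 lower genes, so the larger number of lower genes was not kept there. Without after-SDS array 1 the numbers were nearly equal, 115 higher and 117 lower. With any other single array left out, 58.4 to 70.2% of the genes of 1 sign were lower.

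The ratios behind these 146 genes were small. The median pooled ratio was 0.12 for the 53 genes higher on all 7 arrays, with a range of 0.03 to 0.42. It was -0.22 for the 93 genes lower on all 7, with a range of -2.35 to -0.05. The weakest of a gene's 7 ratios had a median size of 0.013 among the higher and 0.019 among the lower genes. It reached at least 0.1 for 1 higher gene, Serpina3j, and for 4 lower genes, Ifi27l2a, Mylk2, Gdf1 and Ffar2. It reached 0.25 for 1 gene, Ifi27l2a (0.00585% of genes tested). Across all genes, 86 had a pooled ratio beyond 0.5 in size, and 5 of these, Ifi27l2a, Ckm, Mylk2, Cacna1s and Cebpd, had the same sign throughout, each of them lower.

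Without the correction for spot background the higher and lower counts were 74 and 84, and with each array centred on its median in place of loess they were 10 and 9. Of the 146 genes, 106 had 1 sign on all 7 arrays in the first of these settings and 4 in the second. In the authors' deposited log2 ratios 90 of the 146 were present and 51 had 1 sign on all 7.

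**Figure D1:**
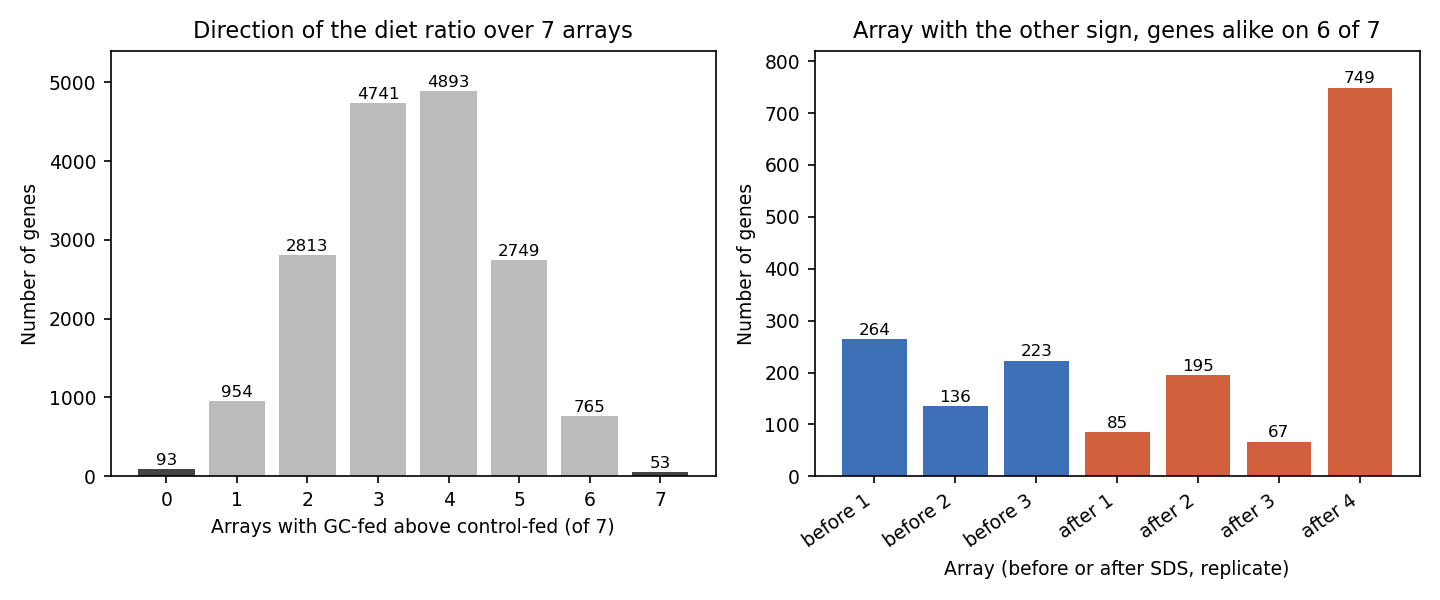
Left, number of genes (y axis) by the number of arrays on which GC-fed skin was above control-fed skin (x axis, of 7), over the 17061 genes with a value on every array; the dark bars are the 93 genes lower and the 53 genes higher on all 7. Right, for genes alike on 6 of 7 arrays, the number of genes (y axis) whose other sign lay on each array (x axis; blue before SDS, orange after SDS): after-SDS array 4 held 749.

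Ifi27l2a, a small mitochondrial protein of the interferon-induced Ifi27 family, had the largest ratio in size among the 146 genes. Before SDS its level, in normalized log2 intensity, was 13.03, 13.31 and 12.97 in GC-fed and 13.87, 14.38 and 14.58 in control-fed skin on arrays 1 to 3. After SDS it was 12.77, 14.39, 9.71 and 9.18 in GC-fed and 14.80, 15.23, 14.80 and 15.29 in control-fed skin on arrays 1 to 4. Within each time the 2 diets did not overlap, and the lowest levels by far were those of the GC-fed samples on after-SDS arrays 3 and 4. The ratios were -0.84, -1.07 and -1.61 before and -2.03, -0.85, -5.08 and -6.10 after SDS, which is 33.9-fold and 68.7-fold less on the last 2 arrays. Those 2 arrays carried the GC-fed sample in Cy5, as did before-SDS arrays 2 and 3. Where it was in Cy3 the ratios were -0.84, -2.03 and -0.85. The dye term of Ifi27l2a was -1.11 (limma, unadjusted p = 0.107).

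The pooled ratio of Ifi27l2a was -2.35 (SE 0.61, 95% interval -3.77 to -0.93; limma adjusted p = 0.939), lower on 7 of 7 arrays. It was -0.99 with the sign of after-SDS array 4 turned and -1.91 without that array. With a dye term in the model, the fitted ratio was -0.72 (SE 0.60) before and -3.51 (SE 0.50) after SDS. The difference of -2.79 (SE 0.78) did not pass (limma, adjusted p = 1.00, unadjusted p = 0.0097). A second probe of the gene gave -0.69, -1.10 and -1.60 before and -1.87, -0.78, -3.99 and -4.43 after SDS, again lower on every array. Its 10 nearest tested neighbours on chromosome 12, 5 on each side, had pooled ratios between -0.36 and 0.13. Of them Serpina1d had 1 sign on all 7 arrays, and Ifi27, the adjacent member of the family, stood at 0.06 (SE 0.11).

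**Figure D2:**
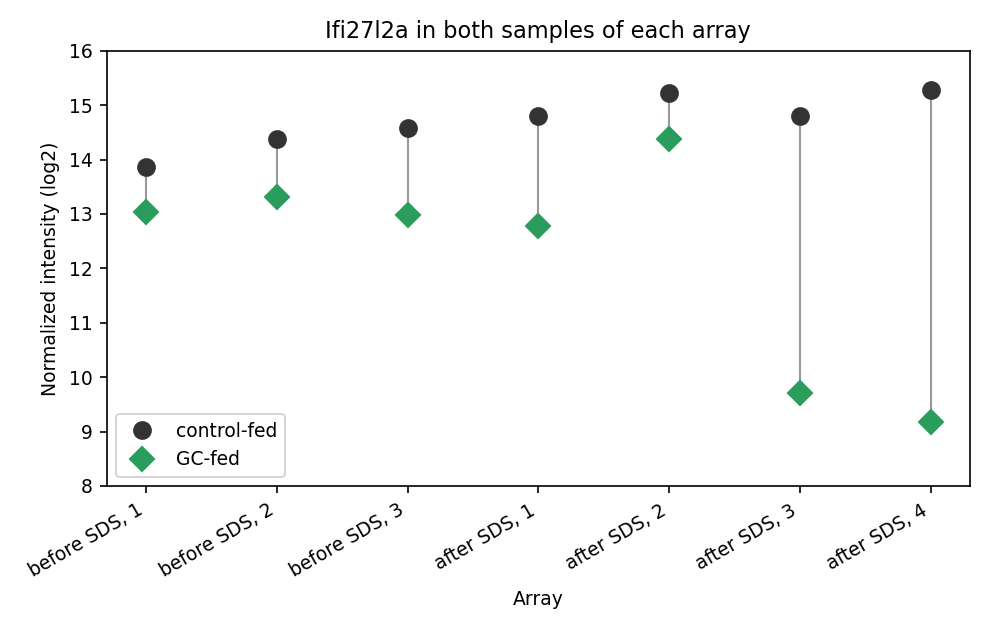
Normalized intensity of Ifi27l2a (y axis, log2) in the control-fed (dark circles) and GC-fed (green diamonds) sample of each array (x axis), with a line joining the pair. Control-fed samples lie between 13.87 and 15.29; the GC-fed samples of after-SDS arrays 3 and 4 lie at 9.71 and 9.18.

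Interferons switch on genes of antiviral defence, many of which carry an interferon-stimulated response element (ISRE) in the promoter. Of the 46 tested genes of the interferon response list, 45 had a pooled ratio below 0, with a median of -0.17, against 49.8% below 0 and a median of 0.0003 over all genes. None passed (0 of 46), 16 were lower and 0 higher at an unadjusted p under 0.05 (2.1 and 1.19% over all genes), and 3 were lower on all 7 arrays (0.544%). The list's median by array was -0.14, 0.02 and -0.09 before and -0.28, -0.32, -0.47 and 0.16 after SDS, and 33 of its genes were higher on after-SDS array 4. Its mean log2 level over samples ran from 9.55 to 10.15 in GC-fed and from 9.91 to 10.31 in control-fed skin. The interferon list, like every gene list here, was chosen with earlier results of these data known. List counts set against all genes are therefore not independent of that choice.

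The 3 genes lower on all 7 were Ifi27l2a, Irf7 and Ifi35. Irf7, a transcription factor of the interferon pathway, had ratios of -0.27, -0.28 and -0.36 before and -0.0004, -0.0096, -0.68 and -0.11 after SDS, a pooled -0.23 (SE 0.07). Its agreement thus rested on arrays 1 and 2 after SDS lying just under 0. Ifi35, an interferon-induced protein, stood between -0.0027 and -0.41, with a pooled -0.15 (SE 0.05). Isg15, a ubiquitin-like protein attached to others after interferon, was chosen after its values were seen: its ratios were -0.47, -0.25 and -0.30 before and -0.34, -0.52, -0.50 and 0.07 after SDS, a pooled -0.34 (SE 0.07), lower on 6 of 7 arrays. Rtp4, another gene of the list, stood at -0.50 (SE 0.15), lower on 6 of 7.

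The promoter of Isg15 is shown as an example of the element among genes of the list, and was picked for its matches; the promoters of Irf7 and Ifi35, lower on all 7 arrays, held 0. It is the 250 bases before the gene's start (RefSeq, GRCm38.p6, minus strand, chr4:156200819-156201068), with matches to the ISRE core, which is GAAA, any 2 bases and GAAA again, searched on both strands, in capitals.
Isg15: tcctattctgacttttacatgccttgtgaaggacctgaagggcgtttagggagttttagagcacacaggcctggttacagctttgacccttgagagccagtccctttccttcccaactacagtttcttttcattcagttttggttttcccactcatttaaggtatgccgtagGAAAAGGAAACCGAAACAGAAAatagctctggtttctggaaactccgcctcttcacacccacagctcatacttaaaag
There were 3 overlapping matches, the first starting at position -78. A match to these letters was found in 3.04% of 27025 promoters of the same length, in 13 of the 33 interferon list genes with a promoter in the table (39.4%), and in 0 of 36 genes higher and 2 of 64 genes lower on all 7 arrays. A match is a description of the letters.

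Among the genes higher in GC-fed skin, Serpina3j had the smallest p of all genes tested. It is a serine protease inhibitor of the alpha-1-antichymotrypsin family, which is expanded in mice. Its ratios were 0.11, 0.61 and 0.72 before and 0.17, 0.40, 0.52 and 0.61 after SDS. The pooled ratio was 0.42 (SE 0.05, 95% interval 0.30 to 0.54), a 1.34-fold difference, higher on 7 of 7 arrays; it did not pass (limma adjusted p = 0.736, unadjusted p = 4.3e-05). The ratio was alike at both times, 0.42 (SE 0.09) before and 0.43 (SE 0.07) after SDS. The smallest ratios, 0.11, 0.17 and 0.40, were those of the arrays that carried the GC-fed sample in Cy3. Its dye term was 0.19 (limma, unadjusted p = 0.0058), and the SE is what was left after that term was fitted.

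The Serpina3 genes differed in direction. Of 8 tested members, Serpina3b (0.79, SE 0.16) and Serpina3l-ps (0.34, SE 0.08) were higher on 6 of 7 arrays, with before-SDS array 1 as the exception in both. Serpina3c, Serpina3g, Serpina3k, Serpina3m and Serpina3n lay between -0.13 and -0.02. Mug1, a murinoglobulin that traps proteases, was higher on 6 of 7 arrays, with ratios of 0.89, 1.47 and -0.17 before and 2.02, 1.53, 1.75 and 1.16 after SDS. Its pooled ratio of 1.27 (SE 0.23) was 2.41-fold, and before-SDS array 3 kept it out of the 53. Its paralog Mug2 was higher on all 7 arrays at 0.35 (SE 0.11), although well above background in only 6 GC-fed and 4 control-fed channels, with a ratio of 0.02 on before-SDS array 3 and 1.05 on before-SDS array 2. Serpina1d, an alpha-1-antitrypsin gene, went the other way: it was lower on all 7 arrays at -0.36 (SE 0.07), with ratios between -0.56 and -0.05. Mug1, Serpina3b, Serpina3l-ps and the other family members were named after their values were seen, and close copies of these families can share signal on a probe.

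The other named genes higher on all 7 arrays had varied roles. Hsd3b2, a 3-beta-hydroxysteroid dehydrogenase of steroid hormone synthesis, had ratios of 0.11, 0.58 and 0.23 before and 0.37, 0.53, 1.10 and 0.08 after SDS, a pooled 0.41 (SE 0.12). Hsd3b6, a close copy, stood at 0.27 (SE 0.09), higher on 6 of 7. Hilpda, a lipid droplet protein induced by low oxygen, had ratios of 0.30, 0.24 and 0.06 before and 0.64, 0.16, 0.07 and 0.12 after SDS, a pooled 0.25 (SE 0.06), and its second probe gave 0.24 (SE 0.05). Mboat7, which attaches arachidonic acid to phosphatidylinositol, lay between 0.06 and 0.39 with a pooled 0.17 (SE 0.04), although its second probe gave 0.07 (SE 0.06).

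Oat, an ornithine aminotransferase of mitochondria, had the least variable ratios of these: 0.26, 0.15 and 0.15 before and 0.10, 0.16, 0.09 and 0.11 after SDS, a pooled 0.15 (SE 0.04). Lrig1, a brake on EGF receptor signalling that marks epidermal stem cells, lay between 0.03 and 0.35 with a pooled 0.20 (SE 0.05). Slc2a12, a glucose transporter, was at 0.21 (SE 0.07), with 0.0082 on after-SDS array 4. Golim4, a Golgi membrane protein, was at 0.15 (SE 0.05), with 0.0142 and 0.0126 on after-SDS arrays 1 and 2. Its 2 other probes gave 0.14 (SE 0.08) and 0.13 (SE 0.04), and both lay just below 0 on array 1 at both times. Arntl, the clock factor also called Bmal1, was at 0.14 (SE 0.05) with its highest ratio, 0.39, on after-SDS array 3. It was the 1 of 23 clock genes with the same sign on all 7 arrays, which 0.853% of all genes had. Etnppl, a phospholyase of phosphoethanolamine, was at 0.25 (SE 0.07) but dim: it was well above background in 4 GC-fed and 1 control-fed channels. After SDS it was above background in GC-fed skin on array 3 and in 0 control-fed samples, so its ratios there are not measured on both sides.

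**Figure D3:**
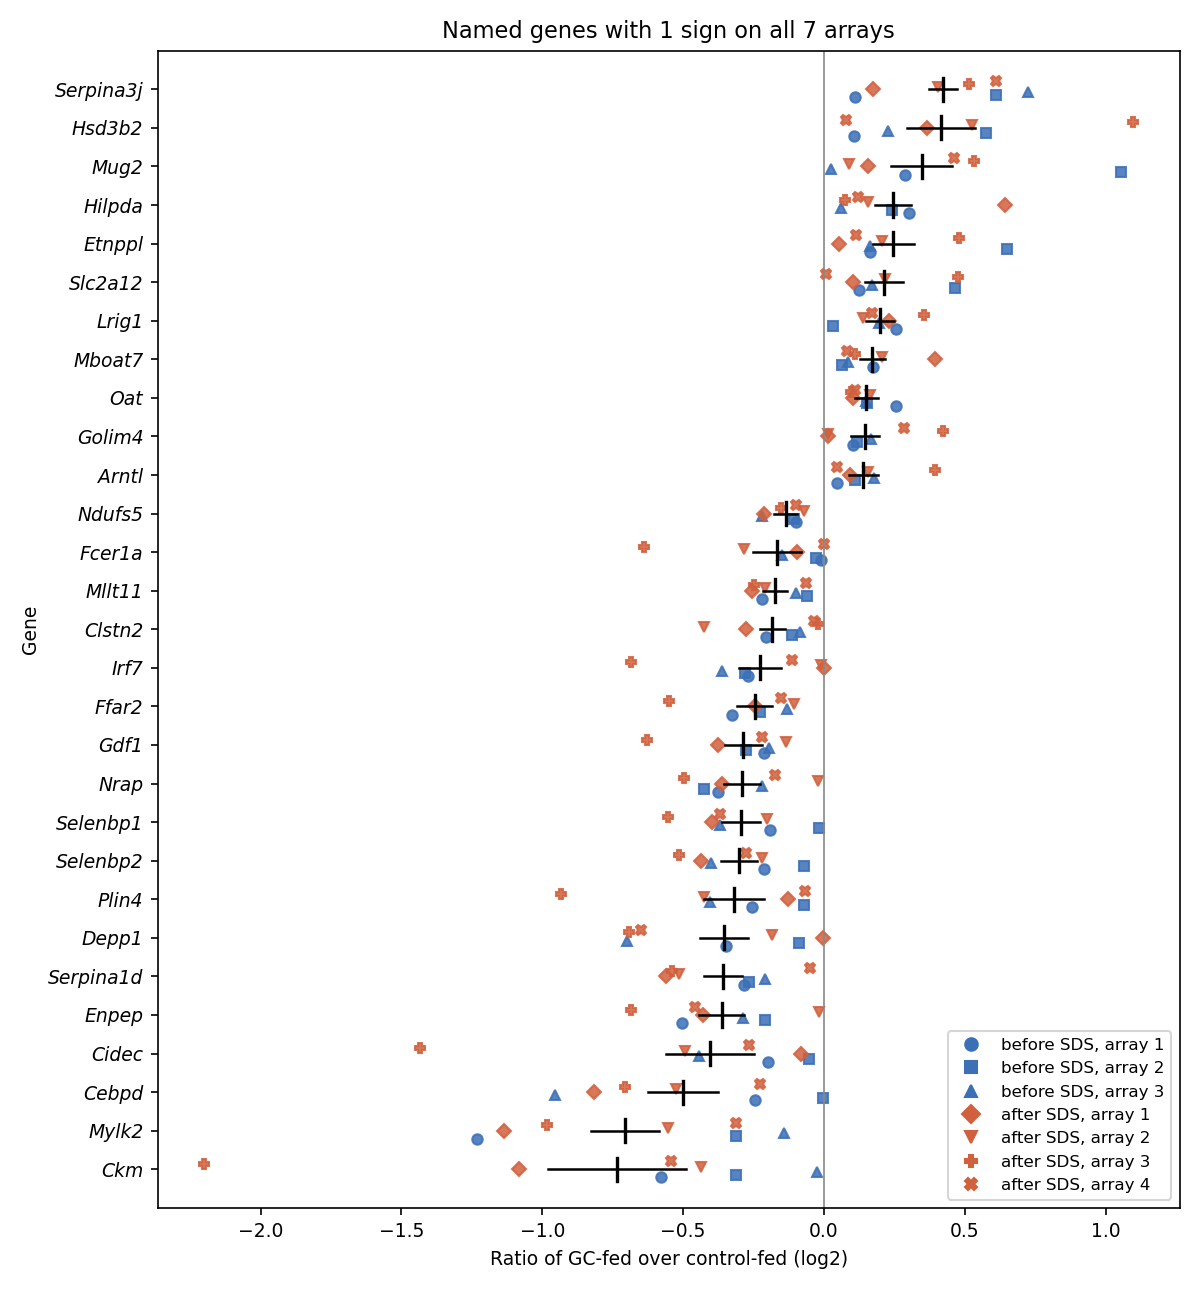
Ratio of GC-fed over control-fed skin (x axis, log2) on each of 7 arrays for the named genes with the same sign on all 7 (y axis; Ifi27l2a is left out for its range). Points are arrays, blue before and orange after SDS; the black tick is the pooled ratio and the line its SE. Ckm reaches -2.20 on after-SDS array 3, and most ratios of the higher genes lie under 0.6.

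Skeletal muscle genes held the largest ratios among the lower genes other than Ifi27l2a. Mylk2, the myosin light chain kinase of skeletal muscle, had ratios of -1.23, -0.31 and -0.14 before and -1.13, -0.55, -0.98 and -0.31 after SDS. Its pooled ratio was -0.71 (SE 0.12, 95% interval -0.98 to -0.43), 1.63-fold less, lower on 7 of 7 (limma adjusted p = 0.939). Ckm, the muscle creatine kinase, ran from -0.03 on before-SDS array 3 to -2.20 on after-SDS array 3, with a pooled -0.73 (SE 0.24). Nrap, which anchors actin at the ends of muscle fibrils, was at -0.29 (SE 0.06). Also lower on all 7 were Cacna1s (-0.58, SE 0.17), the calcium channel of muscle excitation, and Myf6 (-0.40, SE 0.13), a muscle transcription factor. So was Klhl40 (-0.33, SE 0.11), a muscle protein. These 3 were named after their values were seen.

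In the muscle marker list as a whole 31 of 33 genes lay below 0, at a median of -0.44; the share below 0 over all genes was 49.8%. At an unadjusted p under 0.05, 17 were lower and 0 higher, against 2.1 and 1.19% of all genes; 0 passed, and 2 were lower on all 7, Mylk2 and Ckm (0.544% of all genes). Without after-SDS array 3 the list's median was -0.29. Its median by array was -0.43, -0.22 and 0.24 before and -0.92, -0.26, -1.05 and -0.31 after SDS. Before-SDS array 3 was the 1 array with the list above 0, in 24 of 33 genes. The list's mean log2 level ran from 12.23 to 12.94 in GC-fed and from 12.77 to 13.32 in control-fed skin. Myh4, a fast myosin, had the ratios -1.30, -0.51 and -1.56 before and -4.20, -1.40, -2.78 and 0.61 after SDS. In whole skin, fewer cells of a type and less RNA per cell cannot be told apart, and the share of muscle in each sample was not measured here.

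The Ckm promoter is shown as an example of the muscle genes that lay together. It is the 250 bases before the start (RefSeq, GRCm38.p6, plus strand, chr7:19410844-19411093), with the E-box letters CAGCTG, which muscle factors such as Myf6 are known to bind, in capitals.
Ckm: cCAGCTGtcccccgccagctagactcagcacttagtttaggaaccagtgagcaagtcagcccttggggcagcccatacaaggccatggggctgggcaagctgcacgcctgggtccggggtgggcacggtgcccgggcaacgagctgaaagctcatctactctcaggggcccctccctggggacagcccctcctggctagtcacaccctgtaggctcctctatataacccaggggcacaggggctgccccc
The match starts at position -249 and reads the same on both strands. CAGCTG was found in 12.8% of 27025 promoters, in 11 of the 26 muscle list genes with a promoter in the table (42.3%), in 14 of 64 genes lower on all 7 arrays (21.9%) and in 1 of 36 higher (2.78%).

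Of 26 adipocyte markers, 24 had a pooled ratio below 0 (49.8% of all genes), with a median of -0.26, which was -0.16 without after-SDS array 3. At an unadjusted p under 0.05, 10 were lower and 1 higher (2.1 and 1.19% of all genes), 0 passed, and 3, Plin4, Cidec and Car3, were lower on all 7 (0.544%). Plin4, a coat protein of lipid droplets, had ratios of -0.26, -0.07 and -0.40 before and -0.13, -0.43, -0.93 and -0.07 after SDS, a pooled -0.32 (SE 0.11). Cidec, which enlarges lipid droplets, was at -0.40 (SE 0.16), with -1.44 on after-SDS array 3 and the other 6 arrays between -0.49 and -0.05; without that array it was -0.26. Adipoq, the adipokine adiponectin, was at -0.37 (SE 0.15), lower on 6 of 7. The list's medians were -0.01, 0.06 and -0.18 before and -0.18, -0.38, -0.76 and -0.24 after SDS. Plin4, Cidec and Ucp3, a mitochondrial uncoupling protein, were also the 3 of 35 PPAR targets lower on all 7; over that list the median was 0.0005, with 18 genes above and 17 below 0.

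Several other genes were lower on all 7 arrays. Selenbp1 and Selenbp2, close copies of a selenium-binding protein, had near-equal pooled ratios of -0.30 (SE 0.07) and -0.30 (SE 0.06), and neighbour each other on chromosome 3 with 3 tested genes between them. Enpep, an aminopeptidase that cleaves angiotensin, was at -0.36 (SE 0.08), and Depp1, a regulator of autophagy, at -0.36 (SE 0.09) with -0.0022 on after-SDS array 1. Gdf1, a TGF-beta family ligand, had ratios of -0.21, -0.28 and -0.19 before and -0.38, -0.14, -0.63 and -0.22 after SDS, a pooled -0.29 (SE 0.06); it is known to share a transcript with the ceramide synthase gene Cers1, and the probe may report both. Ffar2, a receptor for short-chain fatty acids, was at -0.25 (SE 0.06), with ratios between -0.55 and -0.11. Cebpd, a transcription factor induced by glucocorticoids and inflammation, was at -0.50 (SE 0.12), from -0.0045 on before-SDS array 2 to -0.95 on before-SDS array 3.

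Further genes lower on all 7 arrays had smaller ratios. Ndufs5, a subunit of respiratory complex I, lay between -0.22 and -0.07 with a pooled -0.14 (SE 0.04), while the respiratory chain list of 42 genes had a median of -0.03. Mllt11 lay between -0.25 and -0.06 with a pooled -0.17 (SE 0.04). Clstn2, a cadherin-like membrane protein, was at -0.18 (SE 0.04), but its second probe was at -0.0055 (SE 0.05). Fcer1a, the mast cell receptor for IgE, was at -0.17 (SE 0.08) with -0.0017 on after-SDS array 4 and -0.64 on after-SDS array 3, and -0.09 without the latter. Of the mast cell markers 16 of 16 lay below 0, against 49.8% of all genes, with a median of -0.15. None of them reached an unadjusted p under 0.05 (limma). On before-SDS arrays 1, 2 and 3, 7, 8 and 6 of the 16 were higher.

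The genes most tied to the question of a lipid barrier did not keep 1 sign on all 7 arrays, which 0.853% of all genes did. Ugcg, the synthase of GC itself, had ratios of 0.02, 0.03 and 0.01 before and 0.05, 0.30, 0.10 and -0.18 after SDS, a pooled 0.06 (SE 0.05, 95% interval -0.07 to 0.18). Flg, the filaggrin gene, had -0.15, 0.61 and 0.42 before and 1.82, 0.64, 0.55 and -1.10 after SDS, a pooled 0.44 (SE 0.28, 95% interval -0.20 to 1.09). Lor, the envelope protein loricrin, had ratios, in the same array order, of -0.51, 0.59, 0.40, 1.90, 0.76, 0.69 and -1.15, a pooled 0.42 (SE 0.31). Ivl, involucrin, was at 0.12 (SE 0.16), Tgm1, the transglutaminase that joins envelope proteins, at 0.20 (SE 0.14), and Cldn1, the main claudin of epidermal tight junctions, at 0.17 (SE 0.11). Krt10, the keratin of suprabasal cells, was at 0.40 (SE 0.29) over 6 arrays, since its spot on before-SDS array 2 was an outlier. A second probe of Krt10, with a value on all 7 arrays, gave 0.64 (SE 0.38), from -1.07 to 2.84. The second probe of Cldn1 gave 0.215 (SE 0.09), with -0.17 on after-SDS array 4. Further probes of Ugcg gave 0.09 (SE 0.08) and 0.06 (SE 0.06). Il1b, the cytokine interleukin 1 beta, ran from -2.14 to 1.08, with a pooled -0.49 (SE 0.43). These SEs of 0.28 for Flg, 0.31 for Lor and 0.43 for Il1b compare with a median SE of 0.063 over all genes. Single arrays moved these values: without after-SDS array 1 Flg was at 0.18, Lor at 0.13 and Krt10 at 0.14, and without before-SDS array 1 they were at 0.67, 0.73 and 0.66. Without after-SDS array 3 Ivl was at 0.0083, Tgm1 at 0.09 and Cldn1 at 0.08, and without after-SDS array 2 Ugcg was at 0.01 and Il1b at -0.16. With after-SDS array 4 left out, Ivl was at 0.22, and without before-SDS array 1 Tgm1 was at 0.30 and Il1b at -0.89.

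Lists of the epidermis lay above 0 in the pooled ratio, with 0 genes passing and 0 genes of 1 sign on all 7 arrays in each. Over all genes 0.853% had 1 sign, so 0 in a list of 22 to 40 genes is near that share. Of the suprabasal differentiation genes 30 of 30 lay above 0 (median 0.28), against 50.2% of all genes. Those counts were, for the cornified envelope, 34 of 36 (0.23), for cholesterol synthesis 26 of 26 (0.22), for the epidermal lipid barrier 29 of 36 (0.17) and for basal keratinocyte genes 20 of 22 (0.13). For ceramide and sphingolipid metabolism they were 27 of 40 (0.04), and for the tight junction list 24 of 34 (0.07). At an unadjusted p under 0.05 the lipid barrier list had 8 higher and 1 lower gene, cholesterol synthesis 6 and 0, and suprabasal genes 4 and 0. The tight junction list had 3 and 0, ceramide genes 2 and 0, the cornified envelope 1 and 0, and basal genes 0 and 0. Over all genes 1.19% were higher and 2.1% lower. Without after-SDS array 1 the medians were 0.14 for suprabasal genes, 0.11 for the cornified envelope and 0.14 for cholesterol synthesis, and without after-SDS array 2 that of the lipid barrier was 0.10. Acsl5, which activates fatty acids, was at 0.31 (SE 0.09), and Elovl4, an elongase for the longest ceramide acyl chains, at 0.46 (SE 0.17), each higher on 6 of 7 arrays. Lss, the lanosterol synthase, had ratios of 0.15, 0.26 and 0.11 before and 0.29, 0.36, 0.74 and -0.01 after SDS, a pooled 0.27 (SE 0.09). Its 2 other probes gave 0.15 (SE 0.08) and 0.25 (SE 0.09). They differed from it on after-SDS array 3, at -0.02 and 0.20, and on after-SDS array 4, at -0.25 and -0.38. Cers5, a ceramide synthase, was at 0.28 (SE 0.09), higher on 5 of 7.

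The median of each of these lists was below 0 on after-SDS array 4. For the cholesterol and lipid barrier lists that was the 1 such array; the cornified envelope was also below 0 on before-SDS arrays 1 and 3, basal genes on before-SDS arrays 1 and 2, suprabasal and tight junction genes on before-SDS array 1 and ceramide genes on before-SDS array 3. The cholesterol median was 0.18, 0.19 and 0.07 before and 0.68, 0.29, 0.35 and -0.40 after SDS, and 12 of its 26 genes (46.2%) were higher on the other 6 arrays and not on array 4, against 4.39% of all genes with array 4 as the exception in either direction. That share was 17.1% for the lipid barrier, 13.8% for suprabasal, 9.09% for basal, 7.69% for ceramide, 5.56% for cornified envelope and 2.94% for tight junction genes. The suprabasal median was -0.02, 0.19 and 0.11 before and 0.89, 0.47, 0.48 and -0.42 after SDS. Macrophage and monocyte markers ran the other way, at -0.09, -0.06 and -0.17 before and -0.97, -0.92, -1.04 and 0.99 after SDS, with 28 of 28 genes higher on array 4. Pooled, 28 of 28 lay under 0, against 49.8% of all genes (median -0.39, and -0.24 without after-SDS array 3). Of these markers, 10 of 28 were lower on the other 6 arrays and higher on array 4. Their mean log2 level ran from 11.40 to 12.72 in GC-fed and from 11.69 to 12.59 in control-fed skin. Fcgr1, an IgG receptor of macrophages, had ratios of -0.42, -0.37 and -0.09 before and -0.98, -0.68, -0.30 and 0.24 after SDS, a pooled -0.41 (SE 0.09). A second probe of Fcgr1 gave -0.19 (SE 0.08). Ccl24, a chemokine that draws eosinophils, was likewise lower on all arrays but after-SDS array 4, at -0.53 (SE 0.16), with 0.32 on that array. The part of macrophages, muscle or fat in the epidermal ratios was not tested.

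**Figure D4:**
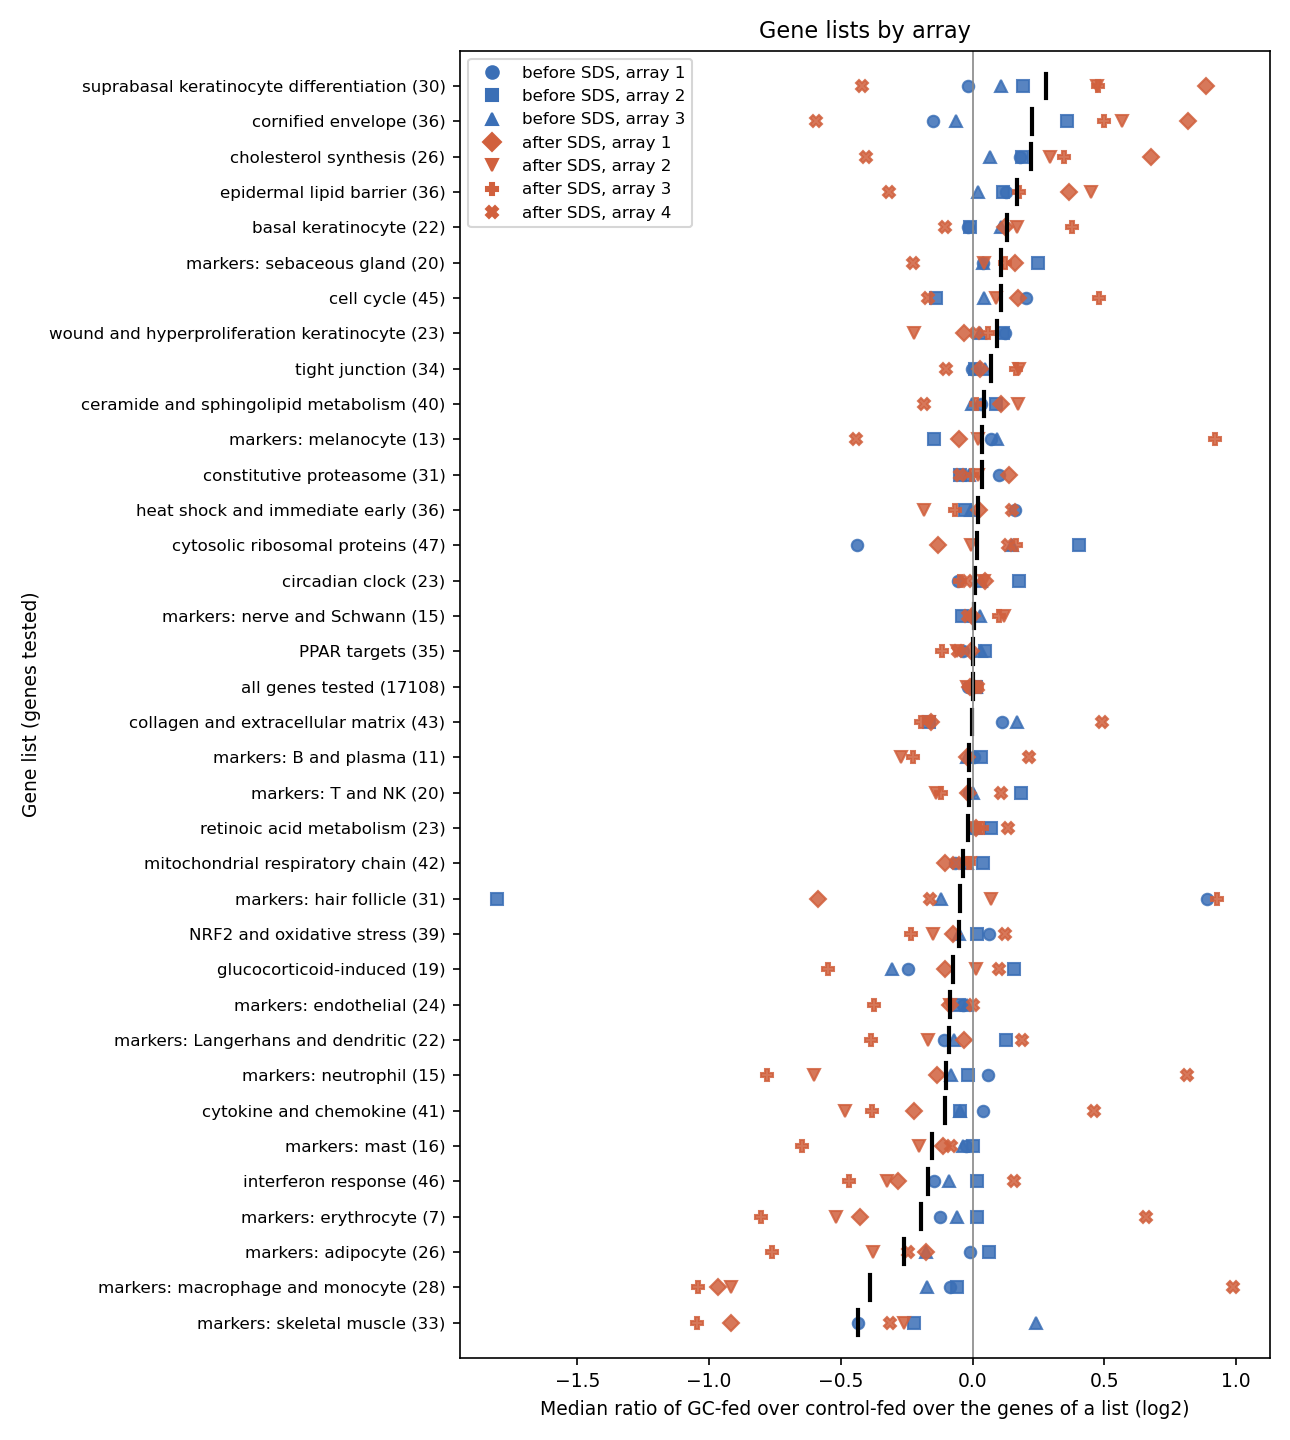
Median ratio of GC-fed over control-fed skin (x axis, log2) over the genes of each list (y axis, with the genes tested) on each of 7 arrays, blue before and orange after SDS; the black tick is the median of the pooled ratios. After-SDS array 4 lies opposite to arrays 1 to 3 for the epidermal, cholesterol and macrophage lists, and the hair follicle list spans -1.80 to 0.93.

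Hair follicle markers had a pooled median of -0.05, or 0.12 without before-SDS array 2, but the widest range over arrays of the 35 lists. Their medians were 0.89, -1.80 and -0.12 before and -0.59, 0.07, 0.93 and -0.16 after SDS. Of 31 genes 0 had 1 sign on all 7, against 0.853% of all genes. Melanocyte markers were highest on after-SDS array 3 as well, at 0.92. Cytokine and chemokine genes lay under 0 in 33 of 41 cases (median -0.10; 49.8% of all genes), and above 0 in 33 of 41 on after-SDS array 4. Cell cycle genes lay above 0 in 41 of 45 cases (median 0.11; 50.2% of all genes), but in 9 of 45 on before-SDS array 2, and without after-SDS array 3 the median was 0.03. Mki67, the proliferation marker, was at 0.32 (SE 0.14), or 0.19 without after-SDS array 3, with -0.39 on after-SDS array 4. Collagen and matrix genes were split, 21 above and 22 below 0. Col1a2, a chain of type I collagen, stood at 0.52 (SE 0.15), higher on 6 of 7 with -0.41 on before-SDS array 1. A second, much dimmer probe of Col1a2 gave 0.14 (SE 0.06). In all, 12 of the 146 genes belonged to any of the 35 lists, which hold 965 tested genes.

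Arrays differed in how they entered the shared ratio. Of 1719 genes alike on 6 of 7 arrays, after-SDS array 4 was the exception in 749 (43.6%), before-SDS array 1 in 264 (15.4%) and after-SDS array 3 in 67 (3.9%). Without after-SDS array 4 the remaining 6 arrays gave 1 sign for 895 genes; leaving out any other single array gave 213 to 410. With the sign of array 4 turned, 749 genes had 1 sign on all 7, and none of the 146 was among them by construction.  Ratios were widest on after-SDS array 3 (SD over genes 0.406) and narrowest on before-SDS array 1 (0.177). Array 3 held the largest of the 7 ratios for 88 of the 146 genes (60.3%), against 34.5% of all genes.

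Before SDS, 3226 genes had the same sign on all 3 arrays, and 4.53% of them kept it on all 4 arrays after SDS while 3.38% had the other sign on all 4. After SDS, 1364 genes had the same sign on 4 arrays, and 10.7% of them kept it on all 3 arrays before. Of 31 genes beyond 0.25 on all 3 arrays before SDS, 23 had a mean after SDS of the same sign, and of 45 beyond 0.25 on all 4 arrays after SDS, 41 of them lower, 38 had a mean before SDS of the same sign. A difference between the 2 times passed for 0 genes (limma, lowest adjusted p = 1.00, with 207 genes at an unadjusted p under 0.05). For 121 of the 146 genes (82.9%) the mean ratio was larger in size after than before SDS, as it was for 61.4% of all genes. The 3 arrays before SDS shared a slide and a scan and the 4 after SDS shared another, so slide and SDS cannot be told apart; the diet ratio itself lies within each array.

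**Figure D5:**
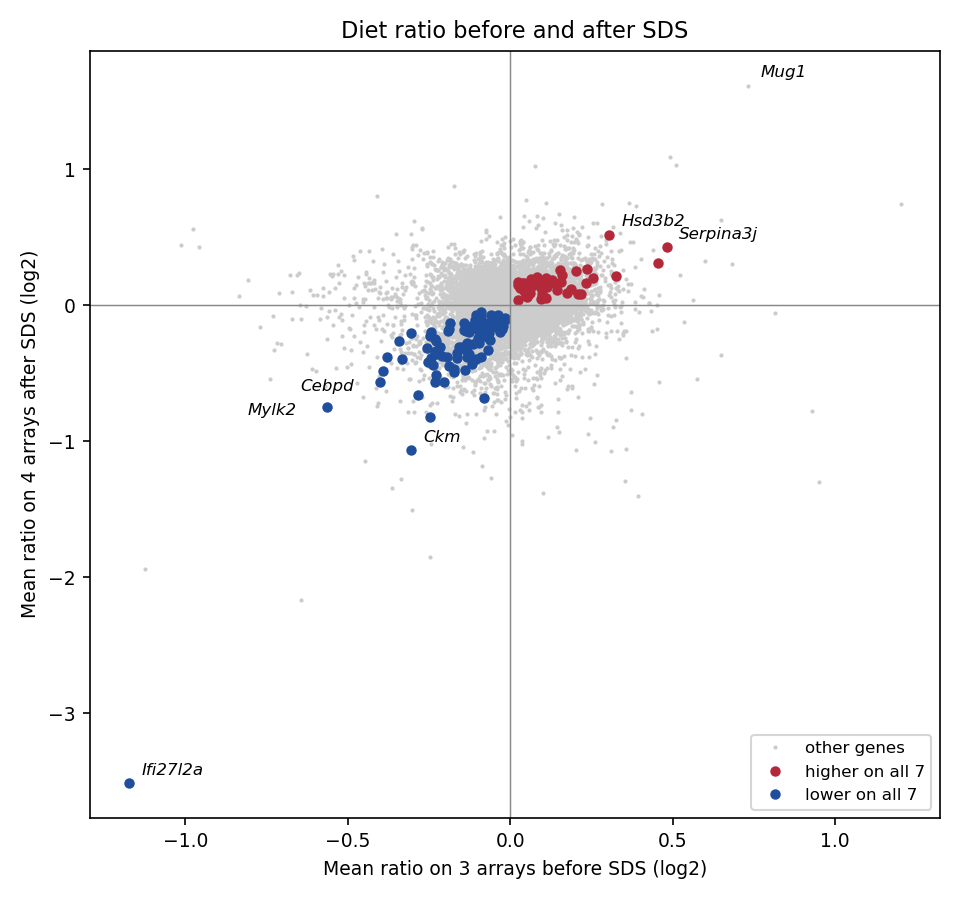
Mean ratio on the 3 arrays before SDS (x axis, log2) against the mean on the 4 arrays after SDS (y axis, log2) for each gene; red, the 53 genes higher, and blue, the 93 genes lower on all 7 arrays, which lie in 2 quadrants by definition. Ifi27l2a lies far below the rest, and Mug1, higher on 6 of 7 arrays, is the highest labelled point.

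The 146 genes were close in brightness to the rest as a whole. Their median log2 intensity was 9.56, against 9.52 over all genes, and 78.8% were well above background in all 14 channels, against 79.0%. The higher genes were dimmer than the lower, with medians of 8.40 and 10.56, and 32 of 53 against 83 of 93 were above background in all 14 channels. A dye term at an unadjusted p under 0.05 occurred in 2 of the 146 (1.37%) and in 14.95% of all genes; the sign rule spans both dye orientations, so this share is not independent of it. Where a gene had further probes above background, 37 of 40 such probes of 34 of these genes had a pooled ratio in the same direction (92.5%), against 72.4% of 8069 further probes of all genes, and 3 of the 40 had the same sign on all 7 arrays themselves. These probes read the same samples, and the 146 were chosen for agreement in sign, so the higher share is not independent of the choice.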

How the data were processed

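Per the labels, RNA of GC-fed and control-fed dorsal skin was hybridised together on 7 Agilent whole mouse genome arrays. Per the file headers, the deposited scanner files were made with Feature Extraction 9.1.3.1 and hold spot and background intensity for each channel, with flags of 0 or 1 for each spot; the genome build is not given in the sources used here. The authors' deposited gene table holds raw intensity and log2 ratios with values under 200 set to 200; its ratios were used only as an alternative.

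Intensities were corrected for background (normexp, offset 50) and normalized by loess within each array with limma 3.58.1 in R 4.3.3. Spots marked as outliers, 4 to 27 per array, were left out. A probe was kept if well above background in at least 3 of 14 channels, and the brightest probe stood for its gene. Levels were scaled between arrays (Aquantile). Of 41174 probes, 22951 were named by accession, 6659 by current and 3109 by older symbol and 294 by gene number in the RefSeq GRCm38.p6 table; 8161 kept the name in the file. The fit held a diet and a dye term, with moderated tests (residual df 5) and Benjamini-Hochberg adjustment over all genes at 0.05. Sequences and motif counts leave out 1 chromosome, and no promoter row was used for Ifi27l2a. Intervals are at 95%. The code was tested on simulated data.

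Members and gene lists were chosen with earlier results of these data known. Named genes, among those with an ordinary symbol, were any passing the pooled fit, the 10 of smallest p in each direction among genes of 1 sign on all 7 arrays, the 6 in each direction with the largest smallest ratio, up to 2 such genes of each list or else its member of smallest p, and Ugcg, Flg, Lor, Ivl, Tgm1, Krt10, Cldn1 and Il1b. Other genes were named after their values were seen, among them Rtp4, Myh4, Adipoq, Elovl4, Ucp3, Car3 and Ifi35. Alternatives covered background, normalization, filter, probes, blocks, weights, the deposited table and leaving out each array.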

Additional observations from a re-analysis of the deposited data

Results flagged for a closer look

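Among the 4 arrays after SDS, 101 results were examined for an array lying far from the other 3 (its gap to the nearest, over the whole range, beyond Dixon's 95% limit for 4 samples), and 7 were found; chance gives about 1 in 20. Hilpda had a ratio of 0.64 on array 1, against 0.07 to 0.16 on the others. Irf7 was at -0.68 on array 3, against -0.11 to -0.0004. The other 5 lay on array 4. Serpina1d was at -0.0512 there, against -0.56 to -0.51. Mki67 was at -0.39, against 0.69 to 0.85, and Tgm1 at -0.54, against 0.50 to 0.66. The median of the collagen and matrix list was 0.49, against -0.20 to -0.16, and that of the macrophage and monocyte list was 0.99, against -1.04 to -0.92.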

How the results depend on the processing

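In the pooled limma fit 0 genes passed in any of 21 settings, with the lowest adjusted p between 0.0628 (slide as a random block, estimated correlation -0.17) and 1.00. Labels pair no samples by replicate number; with the number as a random replicate block (correlation 0.089) 0 genes passed and the lowest adjusted p was 0.980. Of 768 values under alternatives, 743 moved by less than the spread over arrays (counts, by at most 1.5 times) and 25 by more. Among 700 values of list medians, 59 had the other sign than the value reported; these came from 12 of 35 lists, whose reported medians were at most 0.0473 in size, among them PPAR targets, collagen, hair follicle, melanocyte, ribosomal and retinoic acid genes. Of 1313 values of named genes 0 reversed and 0 passed. For the 30 of 66 named genes picked for 1 sign on all 7 arrays, leaving out an array could not reverse the pooled ratio. Most of the others were picked for the smallest p of a list, so the 0 reversed is not independent of the choice. The 146 genes of 1 sign on all 7 arrays became 19 with median centring, 251 without the filter on dim probes, 749 with array 4 after SDS turned, 91 in the authors' deposited log2 ratios, and 213 to 895 with 1 array left out. The 1 gene beyond 0.25 on all 7 became 3 with the scanner software's processed signals, 3 with median centring, 9 with array 4 turned, 2 with the mean of a gene's probes and 1 to 10 with 1 array left out, 10 of them without after-SDS array 4, 8 without before-SDS array 3, 4 without before-SDS array 2 and 2 without before-SDS array 1. A dye term passed for 0 genes, and for 1 without background correction, 22 with processed signals, 12914 with median centring and 67 with array weights. The retinoic acid list median of -0.02 was 0.0619 with processed signals and -0.0225 to 0.0358 with 1 array left out; that of the respiratory chain, -0.03, was -0.0885 with median centring. The cause of these moves was not tested. Signal over background limits the dim genes: 32 of 53 higher genes were measured in all 14 channels.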
